A study of Rattus norvegicus with 10 samples.

Results

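The receptor for follicle-stimulating hormone (FSH) and 7 genes linked to Sertoli cell identity and function (Fshr, Gata4, Gata6, Wt1, Rhox5, Nr5a1, Nr0b1 and Aqp8) were followed on rat expression arrays through 24 h of FSH. They were taken as all probe sets whose single gene symbol is one of these names, which gave 16 probe sets for 8 genes, of 8740 that are not array controls. The array named 4736 genes in this way. Of these 16, 11 were bright enough to test, with at least 1 for each gene, as were 4439 probe sets in all. The material was total RNA of Sertoli cells from 20-day-old rats kept in culture. There were 5 groups: FSH for 2, 4, 8 or 24 h, and untreated control cultures at 0 h. Each group had 2 arrays, numbered replicate 1 and replicate 2. The label of control replicate 2 gives time 0. That of control replicate 1 says only control, and the array was taken as 0 h. With all untreated cultures taken as 0 h, the effect of FSH and that of hours in culture cannot be told apart. The dose of FSH, the strain and the number of animals are not given in the sources used here. Whether the 2 arrays of a group are separate cultures is not stated, and the p-values rest on the spread between arrays alone, part or all of which may be technical.

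Sertoli cells are the somatic cells of the seminiferous tubule that carry developing germ cells. FSH reaches them through Fshr, a receptor that couples to the stimulatory G protein and raises cAMP, and is found in the gonads almost only on Sertoli and granulosa cells. Gata4, Gata6 and Wt1 are zinc finger transcription factors that set up and keep the gonadal somatic fate. Nr5a1 (steroidogenic factor 1) is a nuclear receptor that activates steroidogenic and Sertoli genes, and Nr0b1 (Dax1) is a nuclear receptor relative that represses Nr5a1 activity. Rhox5 is an X-linked homeobox gene that androgen switches on in Sertoli cells, and Aqp8 is a water channel of testis.

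Scaled intensities below are linear values after every array was brought to the same 75th percentile, and log2 changes were taken after raising values under a floor of 13.5 to that floor. A change was called at an adjusted p under 0.05 by limma. Replicates of a group correlated at r = 0.867 to 0.905 across the tested probe sets. Sertoli products were bright on every array: Clu (clusterin) had 6791 to 13806, Shbg (androgen-binding protein) 583 to 913 and Amh (anti-Mullerian hormone) 152 to 350. Of the defining Leydig cell genes, Cyp11a1 was at or under the floor on 6 arrays and Cyp17a1 on 8, with 17.9 as the highest value of either. Other genes of the Leydig list were above the floor on every array: Hsd11b1 had 105 to 331, Hsd17b3 14.2 to 44.2 and the brightest of 5 Lhcgr probe sets 15.5 to 70.7. The 7 myoid, 2 macrophage, 1 endothelial and 2 Leydig marker probe sets tested held no call at any time against 0 h, and all germ cell calls there were of Crem, which FSH induces in Sertoli cells. The summed level of 6 myoid markers was 1242 and 3451 on the 24 h arrays, against 774 and 1116 on control arrays, and the median log2 change of the 7 myoid probe sets at 24 h was 0.79, beside 0.02 over all tested. The part of other cell types in the 24 h values was not tested. The arrays differed by replicate number. The summed level of 14 germ cell markers was 2384 to 3585 on replicate 2 arrays and 415 to 1887 on replicate 1 arrays, with Odf1 and Tnp2 at the floor throughout. The sum includes Crem, and Ldhc alone had 1009 to 1652 on replicate 2 arrays and 58.6 to 571 on replicate 1 arrays. The 3'/5' ratio of the beta-actin control, a measure of RNA integrity, was 1.48 to 1.76 on replicate 2 arrays and 0.928 to 1.17 on replicate 1 arrays.

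No probe set of the 8 genes was called at any FSH time against 0 h. The count was 0 of 11 at 2, 4, 8 and 24 h by limma, where 0.676%, 0.856%, 0.766% and 0% of all tested probe sets were called in either direction. At these shares 0 of 11 is no result about the 8 genes. At an unadjusted p under 0.05 there was 1 of the 11, Aqp8 at 8 h, and none at the other times. Of all 4439 tested probe sets, 203, 344, 413 and 204 had such a p by limma at 2, 4, 8 and 24 h. The count of calls stayed at 0 with the replicate number as a block, where 1.22%, 2.95%, 2.68% and 0.0901% of all were called against 0 h. With the block, 0, 3, 3 and 1 of the 11 had an unadjusted p under 0.05, beside 333, 541, 690 and 411 of all 4439. The count of calls was also 0 for the mean of all FSH times against 0 h (0.383% of all called) and for limma's F test over the times (0.991%). Between successive times it was 0 too (0%, 0% and 0.225% for 4 against 2 h, 8 against 4 h and 24 against 8 h). In these comparisons none of the 11 reached an unadjusted p under 0.05 either. With the block these shares of all probe sets were 2.28%, 3.22%, 0%, 0.0901% and 1.15%, and the count of the 11 was again 0. An unadjusted p under 0.05 was then held by 2, 2, 1, 0 and 1 of the 11, and by 600, 594, 276, 326 and 501 of all 4439. The median log2 change of the 11 was -0.25 at 2 h, -0.10 at 4 h, -0.31 at 8 h and -0.18 at 24 h, beside -0.02, -0.03, -0.02 and 0.02 over all tested probe sets. The block counts by unadjusted p include Nr5a1 at 4 h, at 8 h and in the mean of all FSH times. Nr5a1 passed the intensity filter only through control replicate 1, as described below, so these entries are not read as tests. It is also 1 of the 11 in each median, with a negative change at every time.

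Fshr was read by the probe set L02842_g_at. On replicate 2 arrays its scaled intensity was 88.3, 90.6, 68.9, 56.7 and 62.6 at 0, 2, 4, 8 and 24 h. On replicate 1 arrays it was 195, 122, 126, 81.2 and 109. Both series had their lowest value at 8 h, and 7 of the 8 FSH arrays lay below the control array of their own number, as did 7 or more for 13.6% of all tested probe sets. The group means were ordered 0, 2, 4, 24 and 8 h, and each neighbouring pair in that order overlapped. At 8 h Fshr averaged 69.0 ± 17.3 (SD, n = 2), against 142 ± 75.4 in control cultures, a log2 change of -0.95 ± 0.50 (SE). The test did not call it (adjusted p = 0.640, and 0.148 with the replicate block), and the 95% interval ran from -2.07 to 0.17. The values at 2, 4 and 24 h were -0.32, -0.50 and -0.66. Over all FSH times the log2 difference from control was -0.61 ± 0.39 (adjusted p = 0.827 by limma), and it was -0.04 without control replicate 1, the brightest Fshr array. The other Fshr probe set, L02842_at, was at or under the floor on 9 of 10 arrays with 1.48 to 14.5, and gives no level.

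Nr5a1 had its highest value on control replicate 1. On replicate 2 arrays D42156cds_at had 32.0, 27.2, 17.4, 21.4 and 31.8 at 0, 2, 4, 8 and 24 h. On replicate 1 arrays it had 144, 41.9, 40.9, 38.5 and 29.3. It passed the intensity filter only through control replicate 1: the FSH arrays averaged 31.1 and all arrays but that one 31.2, under the 32.0 needed. A probe set kept in this way had to be high in control cultures, so its changes are given as values and no test is read from them. All 8 FSH arrays lay below the control of their own number, as they did for 6.65% of all tested probe sets. The log2 changes from control were -1.01, -1.35, -1.24 and -1.15 at 2, 4, 8 and 24 h, and the mean over FSH times was -1.19 ± 0.58. Within replicate 1 the mean difference was -1.95, and within replicate 2 it was -0.43. Without control replicate 1 the 4 changes were 0.08, -0.26, -0.16 and -0.07, so their size rested on that array. The FSH groups overlapped with each other, and the group means ran from 29.2 ± 16.6 at 4 h to 34.6 ± 10.4 at 2 h, beside 88.0 ± 79.2 at 0 h.

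Nr0b1, the repressor of Nr5a1, had its own course. X99470_at had 114, 163, 124, 84.2 and 163 on replicate 2 arrays at 0, 2, 4, 8 and 24 h. On replicate 1 arrays it had 287, 310.5, 231, 185 and 442. In both series the value was lowest at 8 h and highest at 24 h, although 2 h and 24 h differed little on replicate 2 arrays. At 24 h it averaged 302 ± 197, against 135 ± 71.4 at 8 h (SD, n = 2). That log2 change was 1.10 ± 0.67, with 1.25 within replicate 1 and 0.95 within replicate 2, and it ran from 0.39 without 24 h replicate 1 to 1.82 without 24 h replicate 2. It was not called (adjusted p = 0.948, and 0.103 with the replicate block). Against 0 h the log2 values were 0.31, -0.10, -0.53 and 0.57 at 2, 4, 8 and 24 h, with 95% intervals of -2.04 to 0.97 at 8 h and -0.94 to 2.08 at 24 h.

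Promoter sequence is shown for Fshr, Nr5a1, Aqp8 and Wt1 because each holds the E box CACGTG, the site that the factors Usf1 and Usf2 bind in the Fshr promoter. Of the 8 genes, 6 were in RefSeq's promoter table (build GRCr8), all but Gata4 and Rhox5. The E box was searched in the 250 bases before the annotated start and is a palindrome, so both strands read alike. It was present in 4 of the 6, and in 5.59% of 33469 promoters of that length. The E box is in capitals.
Fshr, chr6:10952079-10952328 (+ strand): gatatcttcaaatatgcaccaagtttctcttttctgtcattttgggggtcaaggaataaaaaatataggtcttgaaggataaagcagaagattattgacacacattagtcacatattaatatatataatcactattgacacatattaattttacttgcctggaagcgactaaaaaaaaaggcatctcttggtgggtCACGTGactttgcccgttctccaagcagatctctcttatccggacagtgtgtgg
Nr5a1, chr3:42896047-42896296 (- strand): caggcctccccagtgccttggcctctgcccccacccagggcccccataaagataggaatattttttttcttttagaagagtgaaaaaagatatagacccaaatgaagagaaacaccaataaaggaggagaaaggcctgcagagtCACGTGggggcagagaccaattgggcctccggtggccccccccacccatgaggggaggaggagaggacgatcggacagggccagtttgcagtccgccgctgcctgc
Aqp8, chr1:187424193-187424442 (+ strand): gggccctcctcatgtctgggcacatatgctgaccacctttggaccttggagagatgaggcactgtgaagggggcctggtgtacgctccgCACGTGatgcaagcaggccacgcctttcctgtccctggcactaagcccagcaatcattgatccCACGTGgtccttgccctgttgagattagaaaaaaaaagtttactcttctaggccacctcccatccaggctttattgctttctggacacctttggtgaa
Wt1, chr3:112021759-112022008 (+ strand): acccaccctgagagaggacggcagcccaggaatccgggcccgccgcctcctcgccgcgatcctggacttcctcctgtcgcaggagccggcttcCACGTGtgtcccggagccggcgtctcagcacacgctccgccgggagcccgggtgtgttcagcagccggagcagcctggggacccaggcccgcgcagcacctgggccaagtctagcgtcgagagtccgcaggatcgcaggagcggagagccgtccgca

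In these windows the E box began 54 bases before the start in Fshr, 106 in Nr5a1, 157 in Wt1, and 161 and 98 in Aqp8. A GATA site, searched on either strand as GATA with A or T before it and A or G after it, was found once, in Nr5a1 at 201 bases, and in 27.0% of all promoters. CAAGGTCA, the Nr5a1 site, and TGACGTCA, the cAMP response element, were in none of the 6 windows and in 1.33% and 1.59% of all. The half-site TGACG, which lies within the element, was in none of the 6 and in 18.2% of all. Usf1 and Usf2 were themselves tested on 3 and 1 probe sets and none was called against 0 h.

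Gata4 was read by a pair of probe sets with r = 0.89 over the 10 arrays, a value that takes in the difference between replicate numbers. On replicate 2 arrays L22761_at had 61.8, 107, 126, 105 and 109 at 0, 2, 4, 8 and 24 h. On replicate 1 arrays it had 331, 173, 451, 351 and 165. The other probe set, rc_AI234969_s_at, had 68.2, 58.5, 118, 64.2 and 55.1 on replicate 2 arrays and 138, 113, 243, 251 and 119 on replicate 1 arrays. Within replicate 2, L22761_at changed by 0.79, 1.03, 0.77 and 0.82 log2 units against 0 h at 2, 4, 8 and 24 h. There rc_AI234969_s_at changed by -0.22, 0.80, -0.09 and -0.31, with the same sign at 4 h alone. Both probe sets had their highest group mean at 4 h, and at every time the replicate 1 array was the brighter. At 4 h the first averaged 289 ± 229.6, against 196 ± 190.5 in control cultures, and the second 181 ± 88.0, against 103 ± 49.1 (SD, n = 2). The log2 changes at 4 h were 0.74 ± 0.89 and 0.81 ± 0.72, neither called (adjusted p = 0.999 for both by limma, and 0.592 and 0.328 with the block). Between 2 and 4 h rc_AI234969_s_at changed by 1.06 ± 0.72, with 1.11 and 1.02 within replicates 1 and 2 and 0.54 without 4 h replicate 1, which was not called either (adjusted p = 1, and 0.391 with the block). No pair of neighbours in the order of group means was free of overlap.

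Gata6, the relative of Gata4 in the same cells, was bright on L22760_at. On replicate 2 arrays it had 157, 141, 179, 161 and 125 at 0, 2, 4, 8 and 24 h. On replicate 1 arrays it had 174, 404, 433, 249 and 188. The replicate 1 series was high at 2 and 4 h, while the replicate 2 series kept between 125 and 179. The log2 changes against 0 h were 0.53, 0.75, 0.27 and -0.12, none called, with 95% intervals reaching from -1.42 at 24 h to 2.05 at 4 h. At 4 h the change was 1.31 within replicate 1 and 0.19 within replicate 2. A dim probe set, rc_AA955182_g_at, had 11.2 to 49.9 and r = 0.78 to L22760_at, but its replicate 2 series was highest at 0 h (23.3). Another, rc_AA955182_at, stayed between 7.91 and 20.3. Both were under the intensity filter, and the second was nearly unrelated to L22760_at (r = 0.03).

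Wt1, the Wilms tumour suppressor gene, had 3 tested probe sets that did not move alike. S63358_s_at had 117, 185, 206, 163 and 171 at 0, 2, 4, 8 and 24 h on replicate 2 arrays, and 234, 302, 343, 254 and 217 on replicate 1 arrays. Here 7 of the 8 FSH arrays lay above the control of their own number, and both series peaked at 4 h. As many or more lay above for 14.1% of all tested probe sets. The log2 changes were 0.51, 0.68, 0.30 and 0.22, and the largest, 0.68 ± 0.47 at 4 h, was not called (adjusted p = 0.953, and 0.324 with the block). X69716_at had 91.3, 67.8, 93.2, 61.1 and 90.5 on replicate 2 arrays and 75.7, 156, 160, 138 and 105 on replicate 1 arrays, with r = 0.71 to the first. The third, rc_AA965119_at, had 40.4, 52.2, 61.9, 38.2 and 42.5 on replicate 2 arrays and 55.5, 13.2, 23.7, 17.9 and 41.2 on replicate 1 arrays. It ran against the other probe sets of the gene, with r = -0.57 and -0.79 over 10 arrays, and its log2 changes of -0.84, -0.31, -0.86 and -0.18 had the opposite sign to theirs. The arrays therefore give no single direction for Wt1.

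Rhox5 was dim on all 3 of its probe sets. S82627_s_at, the 1 that was tested, had 38.1, 31.3, 40.9, 29.2 and 35.3 at 0, 2, 4, 8 and 24 h on replicate 2 arrays and 41.3, 32.3, 28.4, 34.9 and 33.8 on replicate 1 arrays. Its group means lay between 31.8 ± 0.694 at 2 h and 39.7 ± 2.24 at 0 h. The log2 changes were -0.32, -0.22, -0.31 and -0.20, with 95% intervals between -1.25 and 0.73. U52034cds_i_at had 15.2 to 49.9 and just missed the filter, with a mean of 30.7 where 32.0 was needed. U52034cds_r_at was at or under the floor on 5 arrays.

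Aqp8 had the lowest 8 h value relative to control. AB005547_at had 183, 252, 250, 118 and 328 at 0, 2, 4, 8 and 24 h on replicate 2 arrays. On replicate 1 arrays it had 455, 159, 124, 50.1 and 106. Both series were lowest at 8 h and higher again at 24 h. The 8 h arrays lay below every array of 0, 2 and 4 h, and overlapped with 24 h through its replicate 1 array. How many of all tested probe sets separate in this way was not counted. At 8 h it averaged 84.0 ± 48.0, against 319 ± 192 in control cultures (SD, n = 2), a log2 change of -1.91 ± 0.69. It missed the threshold (unadjusted p = 0.0216, adjusted p = 0.402, and 0.138 with the block), with a 95% interval of -3.47 to -0.35 before adjustment. The change was -3.18 within replicate 1 and -0.64 within replicate 2, and -1.25 without control replicate 1. From 8 to 24 h the log2 change was 1.28 ± 0.69, with 1.08 and 1.48 within replicates 1 and 2 (adjusted p = 0.879 by limma), and it was 0.46 without 24 h replicate 2 and 2.10 without 24 h replicate 1. At 2, 4 and 24 h the log2 values against 0 h were -0.53, -0.71 and -0.63, negative within replicate 1 and positive within replicate 2. The other aquaporin genes tested (Aqp7, Aqp9 and Mip) were not called either.

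**Figure D1:**
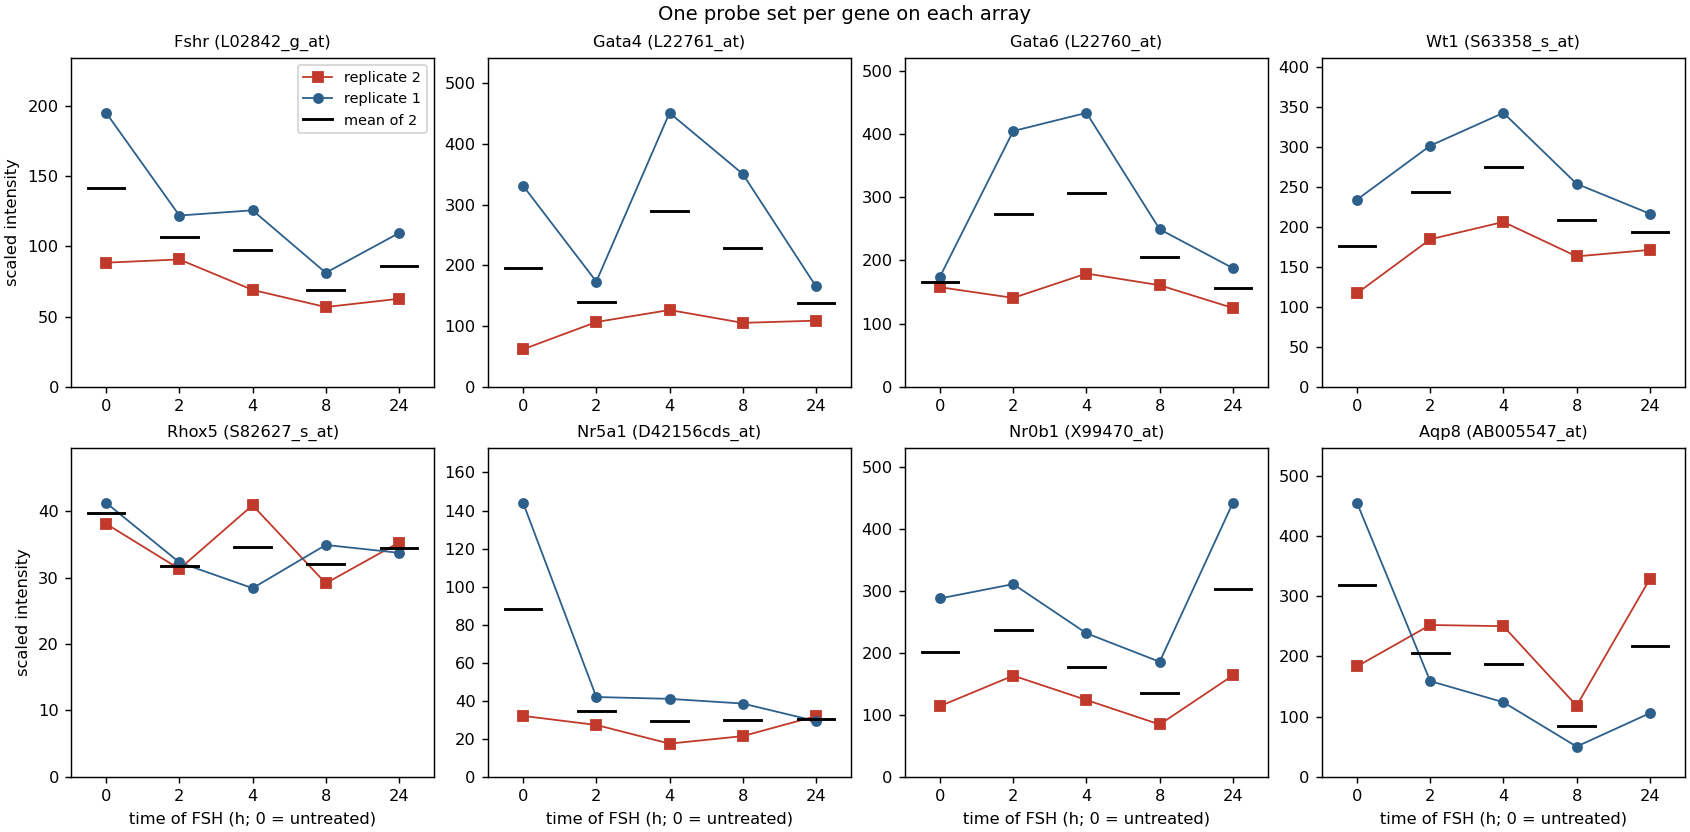
Scaled intensity (vertical axes, linear) of 1 probe set for each of the 8 genes at 0, 2, 4, 8 and 24 h of FSH, with each array as a point, lines joining arrays of 1 replicate number and black bars for the mean of 2. Fshr, Nr0b1 and Aqp8 have their lowest point at 8 h in both series, and the replicate 2 series lies below the replicate 1 series throughout for Fshr, Gata4, Gata6, Wt1 and Nr0b1.

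**Figure D2:**
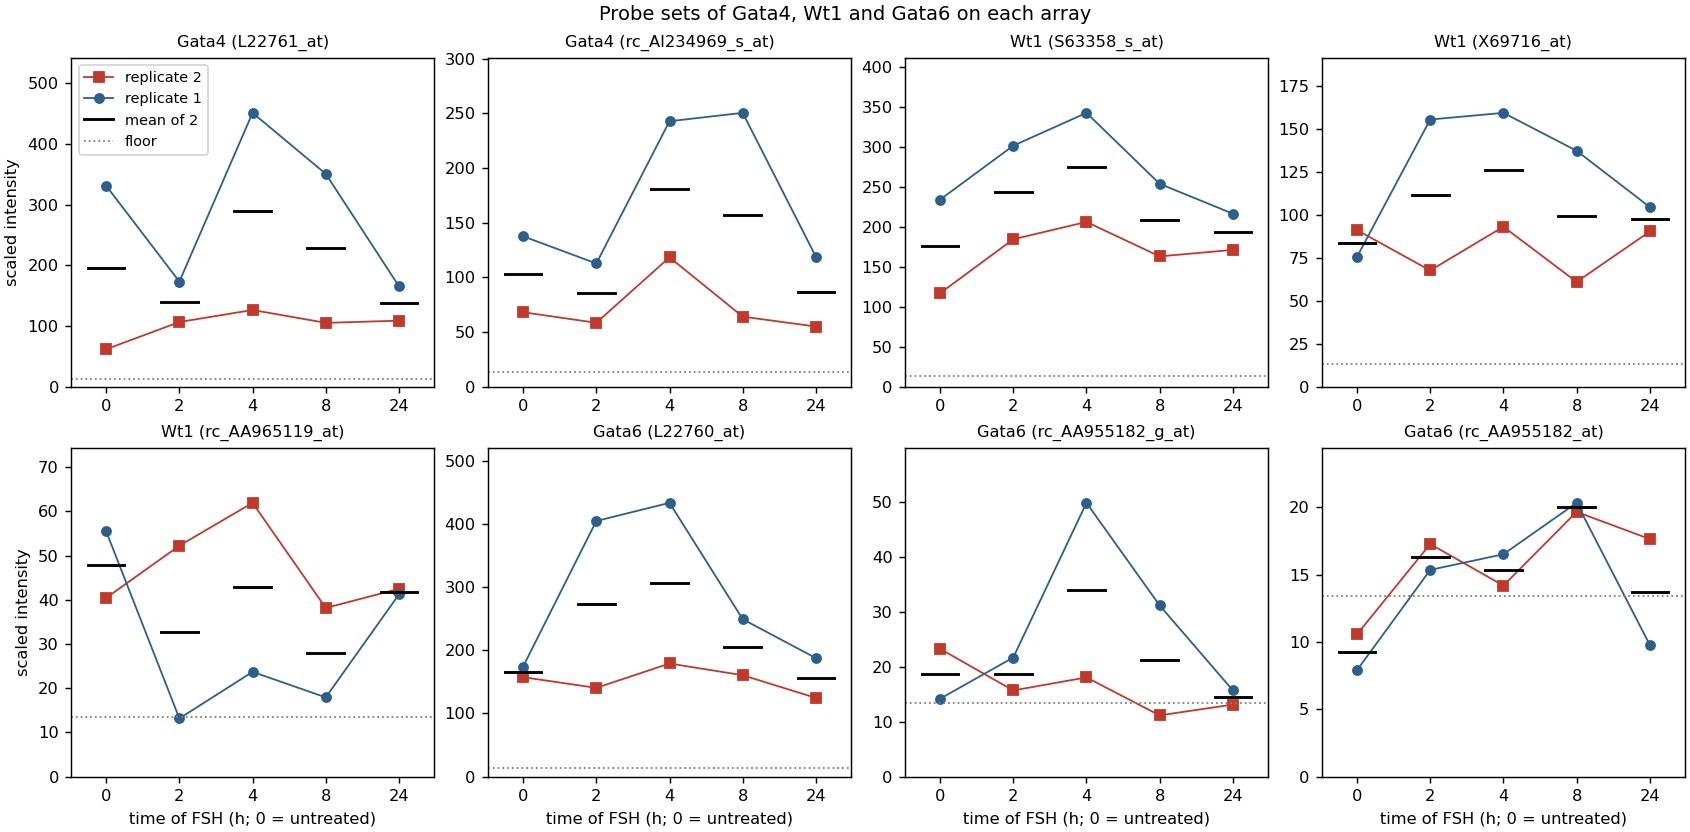
Scaled intensity by time for 2 probe sets of Gata4, 3 of Wt1 and 3 of Gata6, drawn as points per array with lines by replicate number, bars for the mean of 2 and the floor of 13.5 as a dotted line. Both Gata4 probe sets are brighter on replicate 1 arrays throughout and have their highest mean at 4 h. Wt1 rc_AA965119_at is low on replicate 1 arrays at 2, 4 and 8 h where the other Wt1 probe sets are high.

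More of these probe sets were called between replicate numbers than in any comparison of times. The same held for all tested probe sets, with 15.2% called between replicate numbers and 3.22% in the F test over times with the block. The replicate comparison sets 5 arrays against 5, while a comparison of single times sets 2 against 2. In a fit with time and replicate number together, 6 of the 11 probe sets were called lower in replicate 2 and 0 higher, where 8.65% of all tested probe sets were called lower and 6.53% higher. These were Fshr, both Gata4 probe sets, Gata6 L22760_at, Wt1 S63358_s_at and Nr0b1. Gata4 differed most, by -1.46 ± 0.27 log2 units on L22761_at (adjusted p = 0.00834) and -1.21 ± 0.20 on rc_AI234969_s_at (adjusted p = 0.00501). Nr0b1 differed by -1.15 ± 0.17 (adjusted p = 0.00297), Gata6 by -0.83 ± 0.22, Fshr by -0.75 ± 0.19 and Wt1 by -0.68 ± 0.17. For these 6, picked by that same difference, the replicate 2 array was the lower at all 5 times. For Gata4 L22761_at, Wt1 S63358_s_at and Nr0b1 the ranges over times did not overlap. The share of all tested probe sets with such an order was not counted, so this describes the calls and adds no support to them. Nr0b1 had 84.2 to 163 on replicate 2 arrays and 185 to 442 on replicate 1 arrays.

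With each array left out in turn, Nr0b1 and both Gata4 probe sets kept this call in all 10 fits, while Fshr and Wt1 S63358_s_at kept it in 4 and Gata6 in 2, the fits without a control array. With no intensity filter the call stayed for Nr0b1 (adjusted p = 0.0237) and was lost for the other 5, with adjusted p from 0.0547 to 0.157. Nr5a1 had -0.95 ± 0.34, but it passed the intensity filter only through control replicate 1, itself a replicate 1 array. No test is read from that value. The other Wt1 probe sets, X69716_at at -0.62 and rc_AA965119_at at 0.80, missed the threshold with all 10 arrays. Without control replicate 1 their differences were larger, at -0.84 and 1.12. Rhox5 had 0.03 ± 0.26. Aqp8 went the other way, with 0.65 ± 0.36 (adjusted p = 0.271). At all 4 FSH times its replicate 2 array was the brighter, and at 0 h the replicate 1 array was. With either control array left out, the Aqp8 difference was 1.14 log2 units, the highest of the 10 fits without 1 array. The lowest was 0.40, without 24 h replicate 1.

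Beside these values, some germ cell markers went the other way. Of 11 marker probe sets tested, 4 were called higher and 0 lower, namely Ldhc (3.22 ± 0.43), Hspa2 (2.44 ± 0.24), Ddx4 (1.99 ± 0.43) and Pdha2 (1.65 ± 0.29). Inha, a Sertoli product outside the 8 genes, was called lower in replicate 2 on both of its probe sets (-0.97 and -0.89). The other genes of the Sertoli marker list outside the 8 genes were not called, with log2 differences of -0.51 for Clu, -0.50 for Amh, 0.09 for Shbg, and -0.07 and -0.69 on the Ctsl probe sets. In the wider list of target genes described below, 7 of 24 probe sets were called lower in replicate 2 and 2 higher. Among the lower was 1 probe set of Cst3 (-0.98), while its other probe set (-0.54) was not called. The summed level of 9 Sertoli markers, which include 4 of the 8 genes and are led by Clu, was 10871 to 15367 on replicate 2 arrays and 14269 to 19849 on replicate 1 arrays. The part of germ cell content and of RNA integrity in the difference between numbers was not tested. For the probe sets called lower in replicate 2, fewer Sertoli cells and less of that RNA per Sertoli cell cannot be told apart in total RNA.

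**Figure D3:**
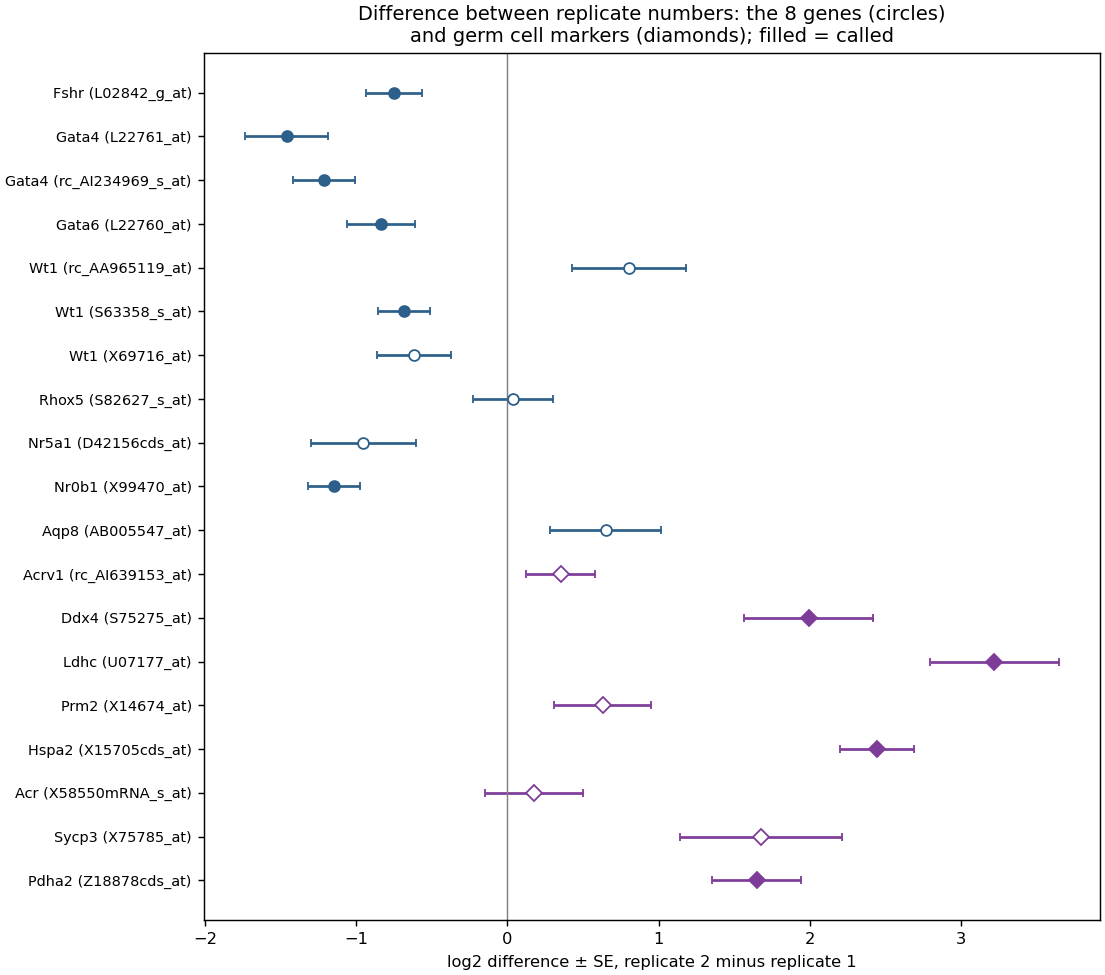
Log2 difference between replicate numbers (replicate 2 minus replicate 1, horizontal axis, with SE bars) for the 11 tested probe sets of the 8 genes (circles) and for germ cell markers other than Crem (diamonds), filled where called. Gata4, Nr0b1, Gata6, Fshr and Wt1 S63358_s_at lie below 0, and Ldhc, Hspa2, Ddx4 and Pdha2 lie above it.

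Genes known to respond to FSH or to these factors gave calls in the same arrays. Of 24 probe sets of 16 such target genes, 3, 4, 5 and 0 were called higher and 0 lower at 2, 4, 8 and 24 h, and 5, 8, 10 and 2 higher with the block. Star, which carries cholesterol into mitochondria and is a target of Nr5a1 and Gata4, had log2 changes of 4.34, 5.44, 4.33 and 2.99 on AB001349_at. Fdx1, the mitochondrial electron donor, had 1.88, 3.32, 3.32 and 1.29 on D50436_at, called at 4 and 8 h. Inha, the inhibin alpha subunit and a target of Nr5a1 and Gata4, had 1.34, 2.77, 3.36 and 2.43 on M36453_at, called at 8 h, and at every time with the block. The lipoprotein receptor gene Scarb1 had -0.44, 1.70, 2.88 and 0.85 on D89655_at, called at 4 and 8 h with the block alone (adjusted p = 0.0109 and 0.000605). Plat, the plasminogen activator that FSH induces, was the remaining called gene, at 2, 4 and 8 h. Amh, Shbg and Clu had no call at any time. Some members of this list were known to have changed here when it was drawn up, so its counts are not independent evidence.

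Of the FSH signalling chain below the receptor, 33 probe sets of 18 genes were tested, and 5, 3, 3 and 0 were called higher and 0 lower at 2, 4, 8 and 24 h. All were of Crem, Dusp1 or Pde4b, whose products are a cAMP-inducible repressor, a MAP kinase phosphatase and a cAMP phosphodiesterase, and Pde4d joined with the block. The other genes tested, for G protein subunits, adenylyl cyclase, protein kinase A and its anchors, arrestin and receptor kinases, had no call against 0 h with or without the block. Of 17 probe sets of 9 other transcription factors of gonadal somatic cells, 1, 1, 0 and 0 were called higher, all Nr4a1 (4.15 at 2 h and 3.27 at 4 h on U17254_g_at).

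**Figure D4:**
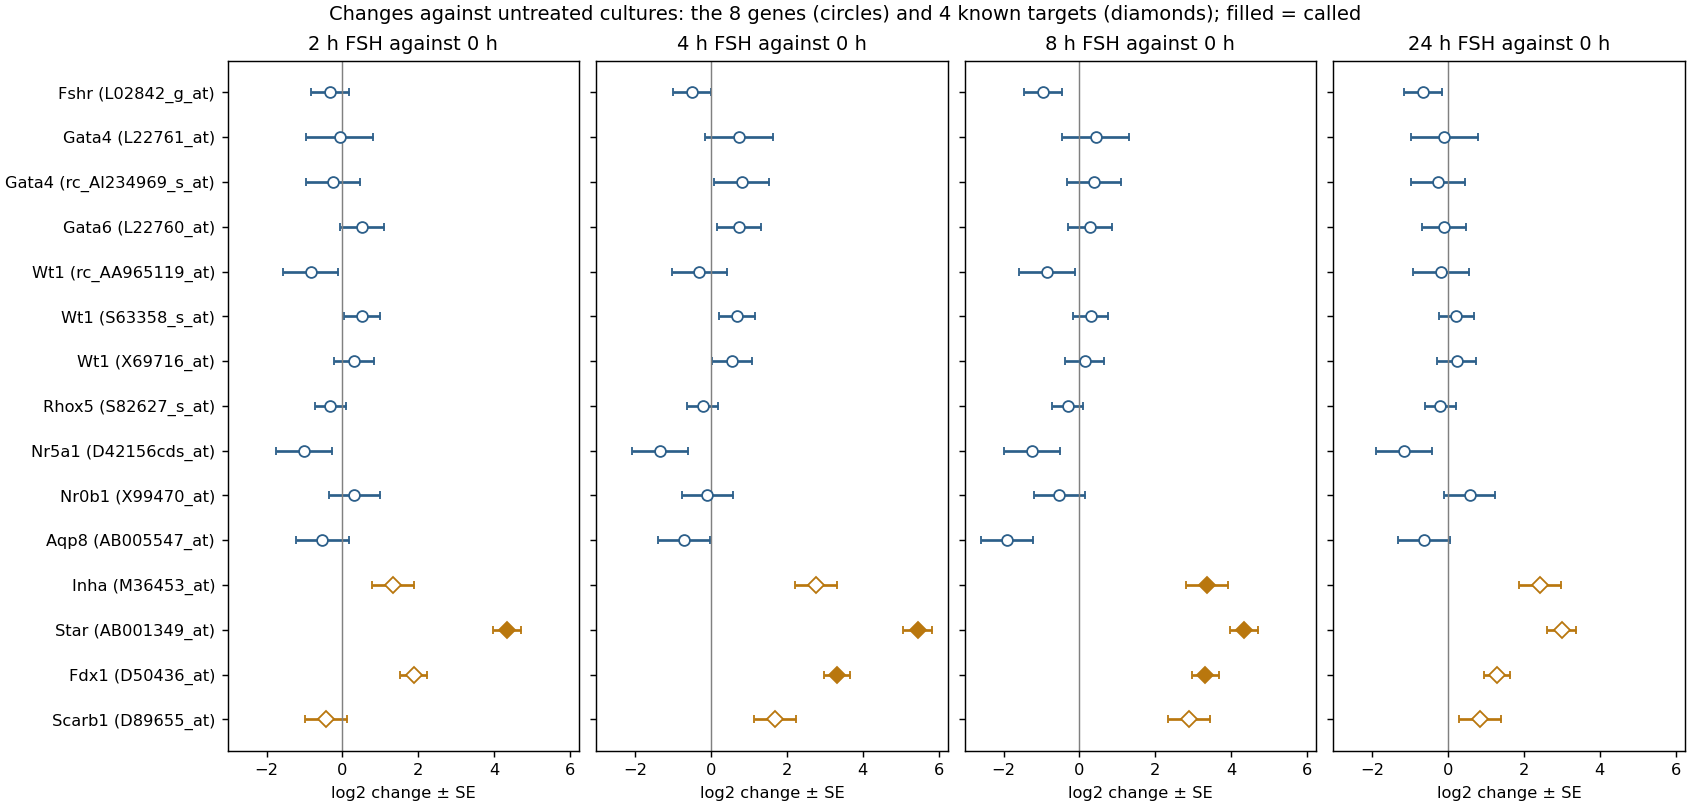
Log2 change against 0 h (horizontal axes, with SE bars, n = 2 a group) at 2, 4, 8 and 24 h of FSH for the 11 tested probe sets of the 8 genes (circles) and 1 probe set each of Inha, Star, Fdx1 and Scarb1 (diamonds), filled where called without the replicate block. All circles are open and lie between -1.91 and 0.81, while Star reaches 5.44 at 4 h.

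Likeness of course was described as Pearson's r of log2 values over the 10 arrays, which share time points and replicate numbers. Fshr was most like Cyp4f6 (0.96), Pea15 (0.94) and Psen2 (0.94). Nr5a1 was most like Ucp2 (0.91), Espn (0.90) and Edn1 (0.90), Nr0b1 like P3h4 on a pair of probe sets (0.96 and 0.94) and Slc25a11 (0.94), and Aqp8 like Gpx1 (0.93), Fkbp4 (0.88) and Oaz2 (0.87). Gata6 was most like Cdh2 (0.96), Sod2 (0.93) and Ppp1r10 (0.92). The first Gata4 probe set was most like Aplp2 (0.94), Cdkn1a (0.94) and Ubtf (0.94), and Ubtf (0.93) was also the second likest to Wt1 S63358_s_at, after Stx6 (0.93) and before Lbh (0.91). Wt1 X69716_at was most like Mxi1 (0.94), Sod1 (0.92) and Smc1a (0.91), and Wt1 rc_AA965119_at like Mag (0.94), Aldoc (0.93) and Ppp1ca (0.93). The second Gata4 probe set was most like Lzts1, Il4r and Acsl5 (0.94, 0.93 and 0.93). Rhox5 had the lowest leading values, with Sh2b1 (0.87), Tpm1 (0.86) and Scaf1 (0.84).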

How the data were processed

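Total RNA of cultured rat Sertoli cells was measured on 10 Affymetrix-style 1-colour arrays, 2 in each of 5 groups. The deposited values are linear intensity per probe set, with trimmed means of 125.2 to 125.27 on all arrays; how they were made and scaled is not given in the sources used here. Each array was scaled to a 75th percentile of 108 (factors 0.909 to 1.13), floored at 13.5 and taken to log2. Probe sets with a mean under 32.0 were left out, which kept 4439 of 8740. limma (version 3.58.1, R 4.3.3) was fitted with lmFit and eBayes with an intensity trend and 1 mean a group, with 5 residual degrees of freedom. P-values were adjusted by Benjamini-Hochberg within each of 10 comparisons. Symbols came from the platform annotation, in which 7006 probe sets had 1 symbol, 308 several and 1426 none.

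Replicate numbers come from the sample labels, with the unnumbered 2 h array taken as replicate 1 beside its partner numbered 2. Control replicate 1, whose label gives no time, was taken as 0 h. Same-numbered arrays deviated together in all 10 pairs of times (r = 0.110 to 0.698), so the number was also fitted as a block. This was weakest with control, where r was 0.110 to 0.417, while pairs of FSH times had 0.476 to 0.698. All probe sets of the 8 genes are named, as are list genes called against 0 h and the 3 likest probe sets of another gene. The 8 genes and the lists (FSH signalling, targets, other factors, aquaporins and cell type markers) were chosen with earlier results of these data known. Promoters are from RefSeq. The fit was tested on simulated data. Alternatives were other scalings, floors and filters, no trend, the block and leaving out each array.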

Additional observations from a re-analysis of the deposited data

How the results depend on the processing

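No probe set of the 8 genes was called against 0 h, between successive times or in the F test under any alternative tried, which were values as deposited, quantile normalization, floors at the 75th percentile divided by 4 and by 16, no intensity filter, no intensity trend, the replicate block and leaving out each array. Of 406 such values outside the fits without an array, 3 changed sign, all under quantile normalization: Gata4 L22761_at to 0.065 at 2 h and 0.030 at 24 h, and Wt1 rc_AA965119_at to 0.016 at 24 h. The Rhox5 difference between replicate numbers became -0.044 there. The cause was not tested.

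The number of all probe sets called moved more. With the replicate block it was 54, 131, 119 and 4 at 2, 4, 8 and 24 h, against 30, 38, 34 and 0 without it, and 4 for 8 against 4 h, 51 for 24 against 8 h, 101 for all FSH times and 143 in the F test. Values as deposited gave 26 for all FSH times. Quantile normalization gave 2 at 24 h, 16 for 24 against 8 h and 26 for all FSH times. The floor divided by 4 gave 17 for 24 against 8 h. With no filter there were 4 at 24 h, 14 for 4 against 2 h, 13 for 8 against 4 h, 2 for 24 against 8 h, 33 for all FSH times, and 167 between replicate numbers, of which 1 was of the 8 genes, against 6 with the filter.

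Without 1 array, the counts ranged over 0 to 31 at 2 h, 8 to 28 at 4 h, 5 to 26 at 8 h, 0 to 15 for 24 against 8 h, 6 to 20 for all FSH times, 19 to 37 in the F test and 294 to 1047 between replicate numbers, with 3 to 9 of the 8 genes' probe sets. The lowest counts at 2, 4 and 8 h came without the replicate 1 array of that time, those for 24 against 8 h and the F test without 8 h replicate 1, and that for all FSH times without control replicate 1. Of 580 values of the 8 genes over time in such fits 49 changed sign, in the results whose ranges follow on the log2 scale. For 2 h against 0 h these were Fshr L02842_g_at -0.89 to 0.25, Gata4 L22761_at -1.28 to 1.14, Gata4 rc_AI234969_s_at -0.76 to 0.25, Gata6 L22760_at -0.24 to 1.29, Wt1 rc_AA965119_at -1.82 to 0.14, Wt1 X69716_at -0.29 to 0.91, Nr5a1 D42156cds_at -2.09 to 0.078, Nr0b1 X99470_at -0.35 to 0.98 and Aqp8 AB005547_at -1.19 to 0.13. For 4 h against 0 h these were Fshr L02842_g_at -1.07 to 0.075, Gata4 L22761_at -0.47 to 1.95, Wt1 rc_AA965119_at -0.999 to 0.39, Rhox5 S82627_s_at -0.48 to 0.045 and Nr0b1 X99470_at -0.77 to 0.57. For 8 h against 0 h these were Gata4 L22761_at -0.79 to 1.64, Gata4 rc_AI234969_s_at -0.59 to 1.37, Gata6 L22760_at -0.045 to 0.59, Wt1 S63358_s_at -0.20 to 0.80, Wt1 X69716_at -0.44 to 0.73 and Nr0b1 X99470_at -1.20 to 0.13. For 24 h against 0 h these were Gata4 L22761_at -1.30 to 1.12, Gata4 rc_AI234969_s_at -0.81 to 0.30, Gata6 L22760_at -0.41 to 0.18, Wt1 rc_AA965119_at -0.41 to 0.050, Wt1 S63358_s_at -0.28 to 0.72, Nr0b1 X99470_at -0.15 to 1.29 and Aqp8 AB005547_at -1.45 to 0.19. For all FSH times against 0 h these were Gata4 L22761_at -0.96 to 1.46, Gata4 rc_AI234969_s_at -0.34 to 0.68, Wt1 S63358_s_at -0.072 to 0.93 and Nr0b1 X99470_at -0.60 to 0.73. Apart from these, the difference between replicate numbers changed sign for Rhox5 S82627_s_at, with -0.089 to 0.11. With 2 arrays a group, a fit without 1 leaves a lone array that is assumed to vary like the other groups. Probe sets near the floor, among them L02842_at of Fshr, are limited by signal over background.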
